A study of Mus musculus with 15 samples.

Results

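The genes described here are Nfe2l2, which encodes the transcription factor NRF2, its regulators Keap1 and Bach1, and 7 genes named for NRF2 control: Nqo1, Osgin1, Hmox1, Txnrd1, Srxn1, G6pdx and Pgd. They were taken by gene symbol, and all 10 had 1 row each among the 20910 genes listed for cultured mouse RPE cells (mRPE) and the 25038 listed for mouse RPE/choroid. Bulk RNA-seq gave 4 libraries of WT mRPE cells, 3 of the Prom1-KO clone KO22, 2 of the Prom1-KO clone KO26, 3 of WT RPE/choroid and 3 of RPE/choroid labelled Prom1-KO. The mRPE cells came from pooled C57/BL6J mice and were immortalised with papillomavirus oncogenes. KO22 and KO26 were each derived from cells that carried lentiviral Cas9, were selected in puromycin and received a Prom1 guide RNA. Each is 1 clonal line, so its libraries sample that line, and loss of Prom1 and any other property of the clone cannot be told apart. Whether the WT mRPE libraries came from cells with Cas9 or a scrambled guide is not given in the sources used here. The tissue Prom1-KO came from Prom1fl/fl mice crossed with RPE65-Cre mice and gavaged with tamoxifen, so the deletion was meant for RPE cells, while the RPE/choroid dissected for RNA also holds vessels, stroma, melanocytes and immune cells. The sources do not say whether the WT mice carried the floxed allele or Cre, or received tamoxifen. The labels give no age, and the study's methods describe young adult mice of both sexes without an age for each library.

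NRF2 is a transcription factor of the response to oxidants and electrophiles. In unstressed cells KEAP1 binds it and hands it to a CUL3 ubiquitin ligase, and it is degraded. When reactive compounds modify cysteines of KEAP1, NRF2 accumulates, pairs with a small MAF protein and binds antioxidant response elements (AREs) near its target genes, where BACH1 otherwise represses. The targets make quinone reductase, haem oxygenase, thiol-repair enzymes and enzymes that supply NADPH. RPE cells face strong light, high oxygen use and daily uptake of photoreceptor membranes, and are a much-studied setting for this pathway. Most control of NRF2 acts on the protein, which RNA counts do not measure.

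The stretches before the annotated starts of 5 of these genes are shown because they differ in whether they hold the letters that NRF2 is known for. The RefSeq promoter table (build GRCm38.p6, which is not the build of the count tables) had an entry for 9 of the 10 genes, and none for Hmox1. Each entry runs from 250 bases before to 50 after a start. The ARE core TGACNNNGC and the AP-1 site TGANTCA were searched on both strands. The 250 bases before the start are printed 5′ to 3′ in the direction of the gene, with matches to either motif in capitals. They are chr2:75704664-75704913 (minus strand) for Nfe2l2, chr8:107403206-107403455 (minus strand) for Nqo1, chr10:82858956-82859205 (plus strand) for the second of 3 Txnrd1 entries, chr2:152105274-152105523 (plus strand) for Srxn1 and chrX:74428881-74429130 (minus strand) for G6pdx.
Nfe2l2: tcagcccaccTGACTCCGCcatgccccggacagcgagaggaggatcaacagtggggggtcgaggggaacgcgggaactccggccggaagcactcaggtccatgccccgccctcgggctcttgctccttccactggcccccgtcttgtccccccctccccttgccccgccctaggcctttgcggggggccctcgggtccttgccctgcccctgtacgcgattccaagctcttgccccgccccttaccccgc
Nqo1: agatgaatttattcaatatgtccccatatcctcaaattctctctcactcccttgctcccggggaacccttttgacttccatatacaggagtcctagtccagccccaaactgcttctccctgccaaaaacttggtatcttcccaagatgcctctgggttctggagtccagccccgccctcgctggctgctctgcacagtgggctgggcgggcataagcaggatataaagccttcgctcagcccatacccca
Txnrd1: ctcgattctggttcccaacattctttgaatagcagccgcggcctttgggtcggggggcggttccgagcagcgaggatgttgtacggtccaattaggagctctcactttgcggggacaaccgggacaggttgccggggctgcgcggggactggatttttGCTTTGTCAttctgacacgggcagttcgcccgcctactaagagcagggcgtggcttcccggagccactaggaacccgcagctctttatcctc
Srxn1: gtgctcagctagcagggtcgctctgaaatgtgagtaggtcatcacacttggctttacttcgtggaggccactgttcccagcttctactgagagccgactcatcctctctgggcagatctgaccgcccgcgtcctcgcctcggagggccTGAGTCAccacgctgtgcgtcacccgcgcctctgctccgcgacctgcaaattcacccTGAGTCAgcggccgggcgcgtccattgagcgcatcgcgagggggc
G6pdx: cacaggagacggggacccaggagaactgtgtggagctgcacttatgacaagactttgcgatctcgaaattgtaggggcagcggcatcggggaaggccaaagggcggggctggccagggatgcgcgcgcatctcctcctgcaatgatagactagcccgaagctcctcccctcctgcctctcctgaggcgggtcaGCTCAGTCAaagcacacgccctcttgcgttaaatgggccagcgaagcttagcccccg

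Over the whole windows, the ARE core was found in 5 genes. It began at -240 from the start in Nfe2l2, at -92 in the second Txnrd1 window, at 28 in Srxn1, at -57 in G6pdx and at 3 in the second of 2 Pgd windows. Srxn1 also held the AP-1 site at -102 and -45, and Osgin1 held it at -97. Keap1, Bach1 and Nqo1 held neither motif in these windows. Of all 32851 windows of the table, 12.4% held the ARE core and 7.81% the AP-1 site, and of its 27025 genes 14% and 8.97% did in at least 1 window. A match of letters is not a measured binding site, and the lack of one says only that these letters are not in this window.

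Values per library are CPM, read counts scaled to the library's total, here adjusted by edgeR's TMM normalization, which was done separately for culture and tissue. Total counts were 8076188 to 27537863 in the 9 mRPE libraries and 48154444 to 61766179 in the 6 tissue libraries, and the lowest count of any of the 10 genes in a library was 25 in mRPE and 35 in tissue. The mRPE libraries carry 2 number series in their names, used here as batches. Batch 8995 holds 1 library each of WT, KO22 and KO26, and batch 9262 holds 3 of WT, 2 of KO22 and 1 of KO26. The study removed both KO26 libraries, 8995-SB-3 and 9262-SB-6, as outliers after batch correction. It proposed biological heterogeneity or technical anomalies, and all KO26 values here rest on these libraries. The labelled cell type was checked against markers. Of 12 RPE markers the mRPE table lists 4, without Rpe65, Lrat, Rlbp1, Rgr, Ttr, Otx2, Tyr and Tyrp1. The 4 listed summed to 11.8 to 17.4 CPM in WT mRPE, 17.3 to 39.9 CPM in KO22 and 8.17 to 12.6 CPM in KO26. The summed level of fibroblast and stroma markers was 13150 to 17800 CPM in WT mRPE, 5676 to 8788 CPM in KO22 and 20260 to 22100 CPM in KO26. Macrophage markers, of which 4 of 12 are listed, summed to 7.82 to 9.72 CPM in WT, 12.2 to 14.9 CPM in KO22 and 10.67 to 10.99 CPM in KO26, endothelial markers (7 of 10 listed) to 328 to 356, 134 to 199.9 and 240 to 248 CPM, and photoreceptor markers (5 of 12 listed) to 10.9 to 12.5, 6.66 to 14.6 and 10.2 CPM. Of the erythroid markers 1 of 7 is listed, at 16.9 to 28.8, 22.0 to 28.9 and 9.93 to 23.3 CPM, and of the melanocyte markers 0 of 6. In KO22 against WT, 4 of the 6 tested fibroblast markers were lower past both limits, as were 13.8% of all genes. What part these markers' shifts have in the values below was not tested. Prom1 was not analysed here in mRPE, so the targeted gene does not check the labels of these 9 libraries. The study itself reported Prom1 protein absent by Western blot and Prom1 transcript reduced by qPCR in both of its Prom1-KO lines. The tests are edgeR's quasi-likelihood test across all genes with Benjamini-Hochberg adjustment, with the batch as a term. A gene passes both limits where its adjusted p is below 0.05 and its log2 fold change exceeds 1.2 in size. Independent cultures are not stated for the libraries, so the p-values measure the spread between these libraries, which may be technical.

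KO22 was compared with WT to see how the pathway stood in the clone with 3 libraries. Nqo1, Txnrd1 and Pgd were higher past both limits, and Nfe2l2, Srxn1, G6pdx, Hmox1 and Keap1 were higher by adjusted p with a smaller fold. Bach1 and Osgin1 did not pass. So 3 of 10 genes passed both limits in the higher direction, against 11.4% of all 20455 genes tested, and 8 of 10 passed the adjusted p alone, against 26.9%. In 7 of 10, every KO22 library lay above every WT library, against 24.8% of all genes. The median log2 fold change of the 10 genes was 1.05, against -0.03 over all genes tested, and none was negative. The plot of levels by library shows all 15 values of each gene.

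**Figure D1:**
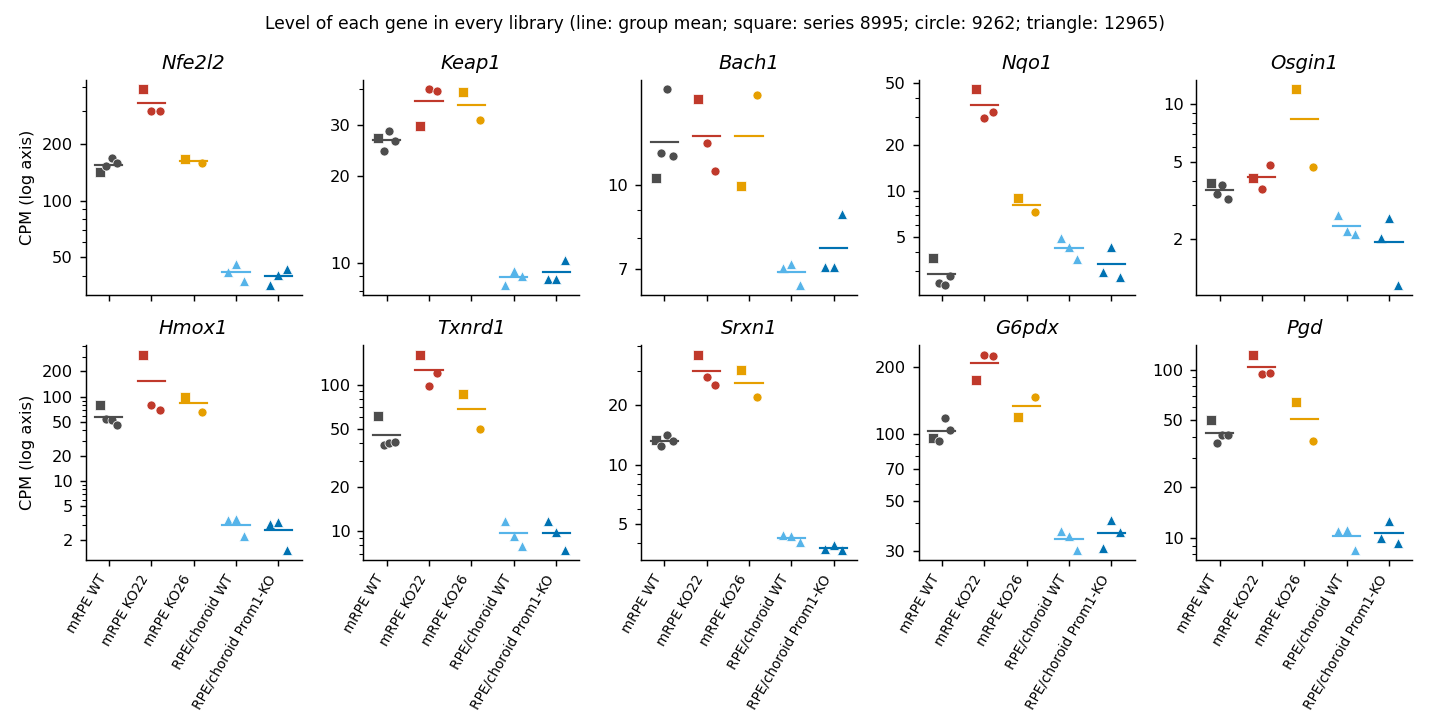
Level of each of the 10 genes in every library, in CPM on a log axis, by group, with the group mean as a line and the library series as the symbol. Nqo1 lies at 2.45 to 3.66 CPM in WT mRPE, 29.8 to 45.6 CPM in KO22 and 7.286 and 9.003 CPM in KO26, while its tissue groups overlap. Culture and tissue were normalized separately and are set side by side with no test.

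Nfe2l2 (ENSMUSG00000015839; mm39 chromosome 2, 75504739 to 75534985, minus strand) was 141 CPM in the WT library of batch 8995 and 153, 169 and 158 CPM in the WT libraries of batch 9262. In KO22 it was 388 CPM in batch 8995, and 297 and 299.5 CPM in batch 9262. All KO22 values lie far above all WT values. The fitted log2 fold change was 1.06 ± 0.13 (SE), or 2.09-fold, with an adjusted p of 0.000136 by edgeR's quasi-likelihood test. It was 1.46 within batch 8995 and 0.90 within batch 9262. In KO26 the gene was 166 and 158 CPM, inside the WT range, and its log2 fold change was 0.04 ± 0.15 (edgeR adjusted p = 0.913). The transcript of the factor itself was thus higher in 1 clone and overlapped WT in the other.

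Keap1, which encodes the adaptor that holds NRF2 for degradation (chromosome 9, 21141026 to 21150679, minus strand), was 26.9 CPM in the WT library of batch 8995 and 24.4, 28.5 and 26.3 CPM in those of batch 9262. The KO22 level was 29.8 CPM in batch 8995, and 39.7 and 39.1 CPM in batch 9262. The KO22 library of batch 8995 sits just above the highest WT library, and the other two stand clear of it. The log2 fold change was 0.45 ± 0.13 (edgeR adjusted p = 0.0135), and leaving out 1 library at a time gave 0.36 to 0.59. The edgeR adjusted p went above 0.05 without either KO22 library of batch 9262 (0.0876 and 0.0767) or without the WT library 9262-SB-1 (0.0509). In KO26 it was 39.0 and 31.1 CPM, both above WT, and the fitted change was 0.42 ± 0.17 on the log2 scale (edgeR adjusted p = 0.211). Keap1 shares 620 exon bases with the antisense gene Gm16754, which lay at 12.3 to 18.1 CPM in WT and 14.9 to 23.3 CPM in KO22. The library kit keeps strand, but the strand setting of the counting is not given in the sources used here.

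Bach1, the repressor at the same elements (chromosome 16, 87495782 to 87530234, plus strand), had the smallest change of the 10 in KO22. It spanned 10.3 to 15.02 CPM in WT, 10.6 to 14.4 CPM in KO22 and 9.98 to 14.7 CPM in KO26, so the groups overlap throughout. Its fitted log2 fold change was 0.04 ± 0.19 in KO22 (edgeR adjusted p = 0.878) and 0.05 ± 0.24 in KO26 (edgeR adjusted p = 0.923). In batch 9262 alone the KO22 value was negative, at -0.15, and in batch 8995 it was 0.46.

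Set against each other per kilobase of exon, Nfe2l2 transcript was 5.45 to 6.52 times that of Keap1 in the 4 WT mRPE libraries. The ratio was 13.6 in the KO22 library of batch 8995 and 7.80 and 7.98 in those of batch 9262. The KO26 level was 4.44 and 5.29, below every WT library. Against Bach1, the ratio was 14.99 to 18.58 in WT, 33.1 to 37.5 in KO22 and 14.3 and 22.2 in KO26.

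Nqo1 encodes NAD(P)H quinone dehydrogenase, which reduces quinones by 2 electrons and is a widely used reporter of NRF2 activity (chromosome 8, 108113835 to 108129934, minus strand). It was 3.66 CPM in the WT library of batch 8995 and 2.54, 2.45 and 2.80 CPM in the WT libraries of batch 9262. In KO22 it was 45.6 CPM in batch 8995, and 29.8 and 32.5 CPM in batch 9262. The log2 fold change was 3.60 ± 0.14, or 12.1-fold, with an adjusted p of 3.41e-07 by edgeR's quasi-likelihood test. Within batches it was 3.47 (8995) and 3.35 (9262), and 3.52 to 3.63 with any 1 library left out. In KO26 it was 9.003 CPM in batch 8995 and 7.286 CPM in batch 9262, both above all WT libraries and below all KO22 libraries. The KO26 log2 fold change was 1.39 ± 0.18, or 2.62-fold (edgeR adjusted p = 0.00566).

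Per kilobase, Nqo1 transcript stood at 0.0289 to 0.0516 of Nfe2l2 transcript in WT mRPE, at 0.199 to 0.234 in KO22 and at 0.0917 and 0.108 in KO26. Both clones therefore held more Nqo1 transcript for each Nfe2l2 transcript than any WT library. In tissue, this ratio was 0.185 to 0.236 in WT libraries and 0.126 to 0.212 in those labelled Prom1-KO.

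Osgin1, an oxidative stress-induced growth inhibitor (chromosome 8, 120152470 to 120173000, plus strand), was among the lowest of the 10. It was 3.90 CPM in the WT library of batch 8995 and 3.43, 3.83 and 3.23 CPM in those of batch 9262. The KO22 level was 4.15 CPM in batch 8995 and 3.62 and 4.81 CPM in batch 9262, which overlaps WT, and the log2 fold change was 0.21 ± 0.21 (edgeR adjusted p = 0.428). The KO26 level was 11.9 CPM in batch 8995 and 4.74 CPM in batch 9262, both above WT. That log2 fold change was 1.07 ± 0.31 and missed the limit (edgeR adjusted p = 0.0929), which it passed with DESeq2's test (adjusted p = 0.0263) and in a fit of the WT and KO26 libraries alone (edgeR adjusted p = 0.017). It was 1.49 within batch 8995 and 0.39 within batch 9262. Without the KO26 library of batch 9262 it was 1.66 (edgeR adjusted p = 0.033), and without that of batch 8995 it was 0.42, so the level in KO26 rests on 1 library.

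Hmox1 encodes the inducible haem oxygenase, which opens the haem ring to biliverdin, iron and carbon monoxide and is also a BACH1 target (chromosome 8, 75820241 to 75827217, plus strand). It was 80.0 CPM in the WT library of batch 8995 and 54.7, 52.5 and 46.4 CPM in those of batch 9262. In KO22 it was 317 CPM in batch 8995, and 79.3 and 70.0 CPM in batch 9262. The groups overlap when pooled, because the WT library of batch 8995 is above both KO22 libraries of batch 9262, but within each batch KO22 is higher. Its fitted log2 fold change was 0.98 ± 0.25 (edgeR adjusted p = 0.00862). It was 1.98 within batch 8995 and 0.54 within batch 9262. Leaving out the WT or the KO22 library of batch 8995 lowered the fitted value to 0.54 or 0.56, with edgeR adjusted p of 6.86e-05 and 2.61e-05. In KO26 the gene was 101 and 66.4 CPM, and the fitted change was 0.23 ± 0.30 on the log2 scale (edgeR adjusted p = 0.708).

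Of the thiol-repair pair, Txnrd1 encodes the cytosolic thioredoxin reductase (chromosome 10, 82669785 to 82733546, plus strand). It was 61.2 CPM in the WT library of batch 8995 and 38.4, 40.2 and 40.3 CPM in those of batch 9262. The KO22 level was 161 CPM in batch 8995, and 97.7 and 119.6 CPM in batch 9262. Every KO22 library is above every WT library, and the WT libraries differ by batch. The log2 fold change was 1.43 ± 0.11, or 2.70-fold (edgeR adjusted p = 7.80e-06), with 1.39 and 1.44 within batches 8995 and 9262. In KO26 it was 86.4 and 49.6 CPM, with 0.41 ± 0.13 (edgeR adjusted p = 0.124, or 0.0314 with WT and KO26 libraries alone).

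Srxn1 encodes sulfiredoxin, which restores overoxidised peroxiredoxins (chromosome 2, 151947436 to 151957687, plus strand). It had the narrowest WT spread for its level, 13.3 CPM in batch 8995 and 12.4, 14.1 and 13.3 CPM in batch 9262. In KO22 it was 36.2 CPM in batch 8995, and 27.8 and 25.4 CPM in batch 9262. The KO26 level was 30.3 CPM in batch 8995 and 22.0 CPM in batch 9262. Both clones lie wholly above WT and overlap each other. Its fitted log2 fold change was 1.14 ± 0.14 in KO22 (edgeR adjusted p = 0.00013) and 0.89 ± 0.17 in KO26 (edgeR adjusted p = 0.0207). The KO26 adjusted p was above 0.05 in all fits that left out 1 library (up to 0.143 by edgeR) but the one without the KO26 library of batch 9262, while the log2 fold change stayed between 0.74 and 1.02.

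G6pdx and Pgd encode the pair of pentose phosphate dehydrogenases that make NADPH, which thioredoxin and glutathione reductases use. G6pdx (chromosome X, 73449857 to 73472819, minus strand) was 96.5 CPM in the WT library of batch 8995 and 92.9, 118 and 104 CPM in those of batch 9262. The KO22 level was 174 CPM in batch 8995, and 227 and 224 CPM in batch 9262, all above WT. The log2 fold change was 1.03 ± 0.12 (edgeR adjusted p = 8.23e-05). KO26 had 119 and 147 CPM, also above WT, with 0.43 ± 0.14 (edgeR adjusted p = 0.119, or 0.0444 with WT and KO26 libraries alone). G6pdx shares 526 exon bases with Ikbkg on the other strand, which was 48.6 to 51.0 CPM in WT and 58.8 to 72.2 CPM in KO22.

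Pgd (chromosome 4, 149233246 to 149251228, minus strand) was 50.3 CPM in the WT library of batch 8995 and 36.6, 40.7 and 41.0 CPM in those of batch 9262. In KO22 it was 123 CPM in batch 8995, and 93.9 and 96.2 CPM in batch 9262. The groups do not overlap. Its fitted log2 fold change was 1.27 ± 0.10, or 2.42-fold (edgeR adjusted p = 9.48e-06), which is just past the fold limit, and it stayed between 1.22 and 1.29 with any 1 library left out. In KO26 the gene was 64.5 and 37.6 CPM, 1 library above WT and 1 inside it, with 0.13 ± 0.14 (edgeR adjusted p = 0.648).

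In KO26 against WT, the 10 log2 fold changes were again all positive, with a median of 0.41 against 0.03 over all 20737 genes tested. Nqo1 passed both limits, against 1.21% of all genes in that direction, none of the 10 was lower past both limits, against 0.719%, and Nqo1 and Srxn1 passed the adjusted p alone, against 2.36%. In 5 of 10 genes (G6pdx, Keap1, Nqo1, Osgin1 and Srxn1) both KO26 libraries lay above all 4 WT libraries, as they did in 11.9% of all genes. The comparisons of the clones use the same WT libraries, so their shared direction is not independent.

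The clones were then compared directly. KO22 was above KO26 by adjusted p in Nqo1, Pgd, Nfe2l2, Txnrd1 and G6pdx, 5 of 10 genes against 16.3% of all genes, and none of the 10 was below, against 18% of all genes by adjusted p and 10.7% past both limits. Only Nqo1 also passed the fold limit, as 7.57% of all genes did in that direction, with a log2 difference of 2.21 ± 0.19 (edgeR adjusted p = 1.75e-05). The log2 differences were 1.14 for Pgd, 1.03 for Nfe2l2, 1.02 for Txnrd1 and 0.60 for G6pdx, with edgeR adjusted p of 0.000298, 0.000842, 0.000423 and 0.00963. Txnrd1 missed the adjusted p with no batch term (edgeR adjusted p = 0.0538), as did G6pdx with the KO22 and KO26 libraries alone (edgeR adjusted p = 0.0792). Pgd also passed the fold limit, at 1.34, without the KO26 library of batch 8995. For Osgin1 the log2 difference was -0.87 ± 0.33 (edgeR adjusted p = 0.0632), or -1.45 past both limits without the KO26 library of batch 9262 (edgeR adjusted p = 0.00889) and -0.21 without that of batch 8995. Its adjusted p was 0.0434 with DESeq2's test. For Hmox1 the log2 difference was 0.81 ± 0.31 (edgeR adjusted p = 0.0695), or 1.04 without the KO22 library 9262-SB-5 (edgeR adjusted p = 0.0306) and 0.19 without that of batch 8995. Srxn1, Keap1 and Bach1 differed by 0.24 ± 0.18, 0.03 ± 0.18 and 0.01 ± 0.25, with edgeR adjusted p from 0.331 to 0.988. The plot of fitted changes sets the 4 comparisons beside each other.

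**Figure D2:**
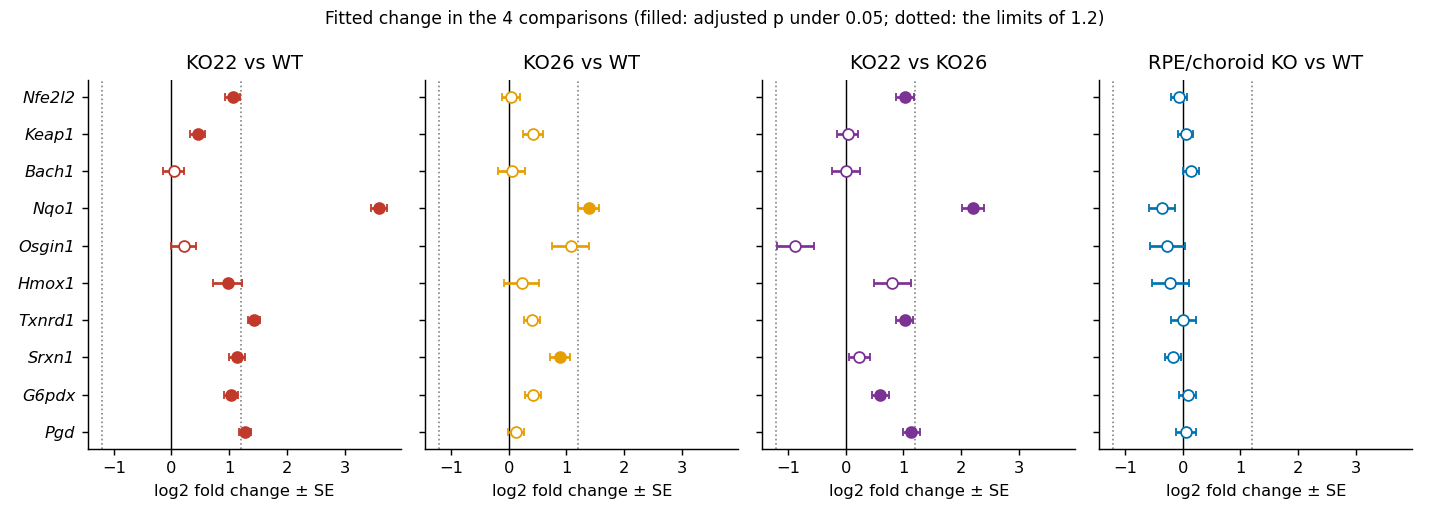
Log2 fold change of each gene with its SE in the 4 comparisons, filled where the adjusted p of edgeR's quasi-likelihood test was under 0.05, with dotted lines at the fold limits. Filled points number 8 in KO22 against WT, 2 in KO26 against WT, 5 in KO22 against KO26 and none in RPE/choroid.

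Within the mRPE libraries, the order of levels per kilobase of exon was much the same in each group. In WT, Hmox1 (33.2 CPM per kilobase) and Nfe2l2 (28.4) stood highest with overlapping ranges, then G6pdx (15.9), then Txnrd1, Pgd and Keap1 at 6.36, 5.33 and 4.66, each overlapping the next, then Bach1, Srxn1 and Nqo1 at 1.65, 1.41 and 1.04, each overlapping the next, and Osgin1 last at 0.758. Nqo1 was the ninth of the 10 in WT and the sixth in KO22, at 13.1 CPM per kilobase, where its range overlapped that of Pgd at 13.2. In KO26 it was the seventh, at 2.96.

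Median changes differed between chromosomes in KO22, from -0.54 on chromosome 10 to 0.60 on chromosome 8 and near 0 on several others, so each gene was also set beside its own chromosome. No test of these medians was made. The median log2 fold change of all tested genes was 0.60 on chromosome 8, which carries Nqo1, Hmox1 and Osgin1, and -0.54 on chromosome 10, which carries Txnrd1. It was 0.14 to 0.27 on chromosomes 2, 4, 9, 16 and X, which carry the others. Relative to that median, Nqo1 stood at 2.995, Txnrd1 at 1.98, Pgd at 1.02, Srxn1 at 0.99, Nfe2l2 at 0.92, G6pdx at 0.83, Hmox1 at 0.38, Keap1 at 0.18, Bach1 at -0.16 and Osgin1 at -0.39. Nqo1 was at the 98.2 percentile of the 1089 tested genes of chromosome 8 and Txnrd1 at the 94.9 percentile of the 968 of chromosome 10. Keap1 and Hmox1 were at the 58.7 and 69.1 percentiles of their chromosomes. In KO22 against KO26 the medians were 0.59 on chromosome 8, -0.54 on 10, 0.37 on X, 0.22 on 4 and 0.10 on 2. Relative to these, Nqo1 stood at 1.62, Txnrd1 at 1.57, Nfe2l2 at 0.93, Pgd at 0.92 and G6pdx at 0.24. G6pdx was then at the 60.3 percentile of chromosome X. What part the chromosome's shift has in each gene's value was not tested.

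**Figure D3:**
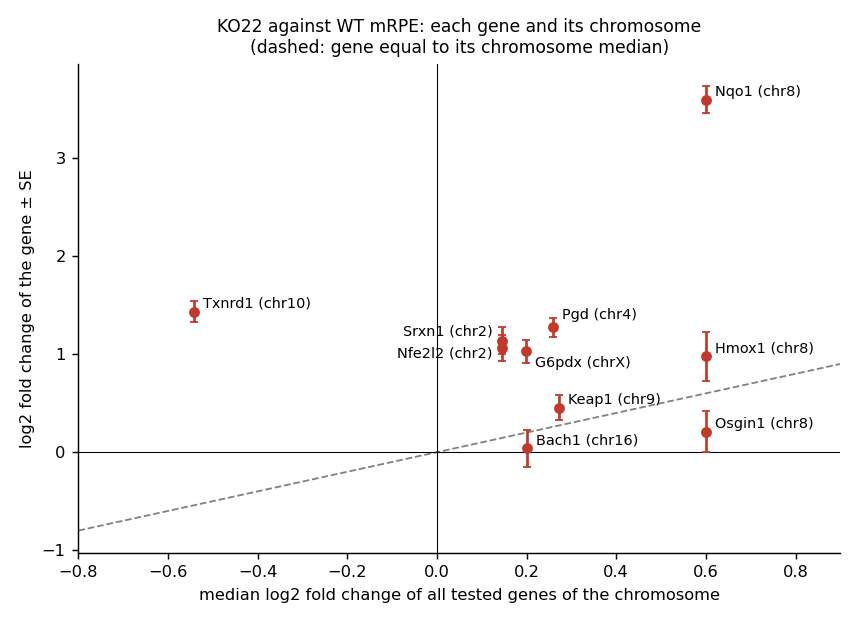
Log2 fold change of each gene in KO22 against WT mRPE, with its SE, on the vertical axis, and the median over all tested genes of its chromosome on the horizontal axis. Nqo1, at 3.60, and Txnrd1, at 1.43, stand farthest above the dashed line of equality, and Bach1 and Osgin1 are below it.

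The rest of the pathway was read from 6 lists of genes that are not among the 10. Of 34 tested genes in a list of other reported NRF2 targets, 16 were higher and 2 lower past both limits in KO22, against 11.4% higher and 13.8% lower of all genes tested, and the list's median change was 0.84 on the log2 scale. The largest were Slc7a11, the cystine transporter, at 5.73 ± 0.12 (181 ± 92.0 CPM in KO22 and 3.17 ± 1.74 CPM in WT, mean ± SD, n = 3 and 4, edgeR adjusted p = 3.48e-08), Abcc4, an efflux pump, at 3.37 ± 0.15, and Gsr, glutathione reductase, at 2.65 ± 0.11 (edgeR adjusted p = 6.62e-07 and 3.71e-07). The 2 that fell were Aox1, an aldehyde oxidase, by 1.73 on the log2 scale from 136 to 38.8 CPM, and Gsta3, a glutathione transferase, by 2.06 on that scale, at 0.983 ± 0.469 CPM in WT and 0.206 ± 0.194 CPM in KO22 (edgeR adjusted p = 3.41e-05 and 0.00918). Gclc and Gclm, the subunits of glutamate-cysteine ligase, stood at 1.26 and 1.10, of which Gclc passed both limits and Gclm the adjusted p alone.

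Of 18 tested genes of the pentose phosphate pathway and NADPH supply, 7 were higher and 1 lower past both limits in KO22 (11.4% and 13.8% of all genes), with a median of 0.36. Me2 and Me1, malic enzymes of mitochondria and cytosol, rose by 2.02 ± 0.11 and 1.66 ± 0.10, and Tkt, transketolase, by 1.64 ± 0.12 (edgeR adjusted p = 1.62e-06, 2.02e-06 and 6.69e-06). Me3, the third malic enzyme, fell by 2.69 on the log2 scale (edgeR adjusted p = 0.000229). H6pd, Idh1 and Rpe were lower by adjusted p alone. Of the other genes in the oxidative branch beside G6pdx and Pgd, Pgls stood at 0.49 (edgeR adjusted p = 0.0409).

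Of 15 thioredoxin, glutaredoxin and peroxiredoxin genes, 3 were higher and 1 lower past both limits in KO22 (11.4% and 13.8% of all genes), with a median of 0.34. Prdx6, Prdx1 and Txn1 rose by 1.84, 1.26 and 1.65, and Txnip, whose protein binds and inhibits thioredoxin, fell by 1.57 on the log2 scale (edgeR adjusted p = 1.37e-06, 0.000105, 0.000386 and 9.53e-05). These 3 peroxiredoxin and thioredoxin genes, Me1 and Tkt are also on the list of other targets, so they count there too. The same holds for Taldo1 and Idh1 of the NADPH list and for Fth1, Ftl1 and Blvrb of the haem list. Nfe2l1, Nfe2l3 and Bach2 are on the lists of both regulators and paralogs.

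Of 18 haem and ferritin genes, 1 was higher and 1 lower past both limits in KO22 (11.4% and 13.8% of all genes), with a median of 0.43. Alad, an early enzyme of haem synthesis, rose by 1.53 ± 0.30 (edgeR adjusted p = 0.00225), and Slc40a1, the iron exporter, fell by 3.55 on the log2 scale from 10.99 ± 1.22 to 1.13 ± 1.05 CPM (edgeR adjusted p = 7.80e-05). Fth1 and Ftl1, the ferritin chains, stood at 0.43 and 0.42 with edgeR adjusted p of 0.0891 and 0.00999.

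Of 23 tested regulators and partners of NRF2, 1 was higher and 1 lower past both limits in KO22 (11.4% and 13.8% of all genes), with a median of 0.08. Palb2, whose protein competes for KEAP1, rose by 1.59 ± 0.21, and Btrc, which marks NRF2 for degradation apart from KEAP1, fell by 1.35 on the log2 scale, from 54.0 ± 7.60 to 20.7 ± 3.47 CPM (edgeR adjusted p = 0.000225 and 1.12e-05). None of 8 tested paralogs passed both limits in KO22. Hmox2, Nqo2 and Osgin2 stood at 0.96, 0.70 and 0.61 and Bach2 at -0.79, each under an edgeR adjusted p of 0.05, and Nfe2l1, Nfe2l3, Txnrd2 and Txnrd3 stood at 0.08, -0.09, 0.11 and 0.21 and did not pass. Over all genes tested, 11.4% were higher past both limits in KO22 and the median was -0.03. The shares of other targets, NADPH genes and thioredoxin genes that were higher past both limits lie above that 11.4%. Those of haem genes, regulators and paralogs lie below it, but only with the fold limit. By adjusted p alone, 8 of 18 haem genes, 7 of 23 regulators and 3 of 8 paralogs were higher, against 26.9% of all genes. By the same measure 4, 5 and 1 of them were lower, as were 5331 of all 20455 genes. The share that was lower past both limits lies below the 13.8% of all genes in each of the 6 lists. No test of the lists was made.

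In KO26, where 1.21% of all genes were higher and 0.719% lower past both limits, 1 of the 34 other targets was higher, Slc7a11, at 2.27 ± 0.16 (18.0 ± 6.10 CPM, n = 2, edgeR adjusted p = 0.000677), with a list median of 0.34. Of the NADPH genes, Aldh1l2 and Mthfd2, both enzymes of mitochondrial folate metabolism, rose by 2.05 ± 0.31 and 2.04 ± 0.46 (edgeR adjusted p = 0.0102 and 0.0391). No gene of the other 4 lists passed both limits. In KO22 against KO26, 11 of the 34 other targets were higher and 2 lower past both limits, against 7.57% higher and 10.7% lower of all genes, with Slc7a11 at 3.46 ± 0.18, Gsta4 at 3.08 ± 0.17 and Abcc4 at 3.02 ± 0.25 (edgeR adjusted p = 1.14e-06, 1.28e-06 and 1.70e-05). In that comparison 1 NADPH gene was higher (Me1), 1 thioredoxin gene higher (Prdx6) and 1 lower (Txnip), 1 haem gene higher (Flvcr1) and 1 lower (Slc40a1), 1 regulator lower (Btrc) and no paralog called. The plot of pathway lists shows each gene in 3 of the comparisons.

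**Figure D4:**
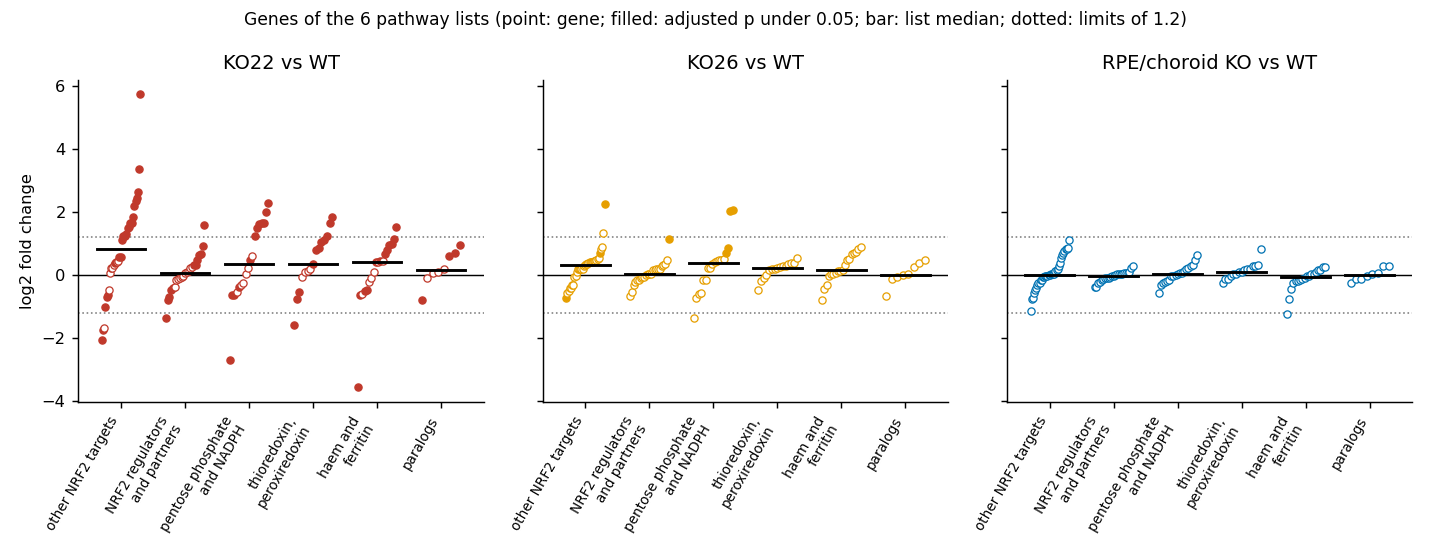
Log2 fold change of every tested gene of the 6 pathway lists in KO22 against WT, KO26 against WT and RPE/choroid labelled Prom1-KO against WT, filled where the adjusted p of edgeR's quasi-likelihood test was under 0.05, with the list median as a bar and dotted lines at the fold limits. The other NRF2 targets spread upward in KO22, to 5.73 for Slc7a11, and no point is filled in the tissue.

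Over the 9 mRPE libraries, centred within each batch, the genes whose log2 CPM followed Nfe2l2 most closely among 20542 were AA467197, Ece1 and Pgbd5, with Pearson r of 0.996, 0.995 and 0.995. Those closest to Nqo1 were Slc7a11, Kif24 and Dusp4, at 0.9995, 0.997 and 0.994. Such likeness was common, since 1621 genes had r above 0.9 with Nfe2l2 and 1950 with Nqo1, and all points share the same split between KO22 and the other libraries. Among the 10 genes, Nqo1 followed Txnrd1 at r = 0.988 and G6pdx at r = 0.973, Nfe2l2 followed Pgd at r = 0.965, and Bach1 followed none above 0.57.

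In RPE/choroid the question was whether the pathway differed in tissue labelled Prom1-KO. Some properties of these libraries come first. Prom1 itself was 48.7, 49.6 and 53.3 CPM in WT and 49.9, 48.1 and 35.5 CPM in the libraries labelled Prom1-KO. The first of these is inside the WT range, the second just below it and the third, 12965-SB-06, clearly below. RPE markers summed to 2131 to 3065 CPM in WT and 663 to 882 CPM in the libraries labelled Prom1-KO. Rpe65 was 204 to 287 CPM against 1.13 to 5.98 CPM, and Rpe65, Rgr, Lrat and Rdh5, 4 of the 12 RPE markers, were lower past both limits. The 12 markers had a median log2 fold change of -1.445. Best1 was low and overlapped, at 1.02 to 1.72 CPM in WT and 0.735 to 1.86 CPM in the libraries labelled Prom1-KO. The markers thus did not fall alike, but Best1 also lay at 3.153 to 4.235 CPM in WT mRPE, where Rpe65 is not listed. Fewer RPE cells and lower levels of these transcripts per cell cannot be told apart in these samples. The part of either in the values below was not tested. Photoreceptor markers summed to 45.6 to 1230 CPM in WT and 23.3 to 596 CPM in the others, and endothelial markers to 158 to 306 and 109 to 144 CPM. Macrophage markers summed to 318 to 394 and 271 to 352 CPM, erythroid markers to 39.8 to 72.7 and 14.9 to 115 CPM, melanocyte markers to 467 to 728 and 722 to 769 CPM, and fibroblast markers to 939 to 1934 and 824 to 1876 CPM. The third library labelled Prom1-KO, 12965-SB-06, stands apart, with 80.4% of its counts on mitochondrial ribosomal RNA against 55.3% to 63.2% in the other 5. Without it, the libraries labelled Prom1-KO had 760 to 882 CPM of RPE, 156 to 596 of photoreceptor, 130 to 144 of endothelial, 271 to 352 of macrophage, 14.9 to 15.6 of erythroid, 722 to 724 of melanocyte and 824 to 937 of fibroblast markers.

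None of the 10 genes passed either limit in the tissue, where 0.189% of 24926 genes passed both limits and 0.193% the adjusted p alone, by edgeR's quasi-likelihood test. At an unadjusted p under 0.05 none of the 10 passed either, since the smallest was 0.153 for Nqo1. The log2 fold changes ran from -0.36 to 0.15, 5 of 10 were positive, and their median was -0.03. Without 12965-SB-06 they ran from -0.25 to 0.15 and none passed. They were then -0.15 for Nfe2l2, -0.0334 for Keap1, 0.0201 for Bach1, -0.25 for Nqo1, -0.0327 for Osgin1, 0.0323 for Hmox1, 0.15 for Txnrd1, -0.17 for Srxn1, 0.0705 for G6pdx and 0.13 for Pgd.

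Nqo1 in tissue was 4.95, 4.31 and 3.59 CPM in WT and 2.95, 4.29 and 2.75 CPM in the libraries labelled Prom1-KO. The groups overlap, and the log2 fold change was -0.36 ± 0.22 (edgeR adjusted p = 0.745), or -0.25 without 12965-SB-06. Nfe2l2 was 41.7, 46.3 and 37.4 CPM in WT and 35.8, 40.3 and 43.5 CPM in the others, at -0.07 ± 0.14 (edgeR adjusted p = 0.941), or -0.15 without 12965-SB-06. Hmox1 was 3.41, 3.52 and 2.20 CPM against 3.05, 3.23 and 1.52 CPM, at -0.21 ± 0.32, and 0.03 without 12965-SB-06. Srxn1 was the only one of the 10 that did not overlap, at 4.42, 4.35 and 4.07 CPM in WT and 3.75, 3.93 and 3.71 CPM in the libraries labelled Prom1-KO. Its log2 fold change was -0.17 ± 0.14 (edgeR adjusted p = 0.806), and 7.89% of all genes were separated in that direction.

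The fitted change of Osgin1 was -0.27 ± 0.30. Of the others, Keap1 lay at 8.39 to 9.39 CPM in WT and 8.77 to 10.2 CPM in the libraries labelled Prom1-KO. Bach1 lay at 6.56 to 7.15 and 7.09 to 8.85 CPM, Osgin1 at 2.13 to 2.66 and 1.16 to 2.58 CPM, and Txnrd1 at 7.90 to 11.7 and 7.43 to 11.7 CPM. G6pdx lay at 30.3 to 37.0 and 31.0 to 41.2 CPM, and Pgd at 8.53 to 11.2 and 9.32 to 12.7 CPM. All of these overlap. Per kilobase, the tissue order also differed from culture. Nfe2l2 (7.65 CPM per kilobase in WT) and G6pdx (5.26) stood highest, and Hmox1, Keap1, Nqo1, Txnrd1 and Pgd followed between 1.30 and 1.73, each overlapping the next. The ratio of Nfe2l2 to Keap1 transcript per kilobase was 4.34 to 5.18 in WT tissue and 4.23 to 4.79 in the others. None of the genes of the 6 pathway lists passed either limit in the tissue, and the list medians ran from -0.06 to 0.11.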

How the data were processed

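Bulk RNA-seq of 9 mRPE and 6 RPE/choroid libraries was used. The authors trimmed reads with Trim Galore 0.6.7, aligned them to mm39 and counted reads per gene with STAR, and deposited raw counts per gene. They also deposited a normalized signal table (raw counts divided by 1 size factor per library, with DESeq2 1.42.0 named in the submitters' processing notes), which was not used in the tests. The study named a TruSeq stranded kit and the labels an NEB stranded kit.

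Genes that reached 5 counts in 3 or more of the fitted libraries entered edgeR 4.0.16 (R 4.3.3; quasi-likelihood test, TMM, batch as a term for mRPE, Benjamini-Hochberg adjustment). KO22 was fitted with WT over 7 libraries, as in the study, which left out both KO26 libraries as outliers. KO26 comparisons were fitted over all 9. Standard errors are the absolute log2 fold change over the square root of F. Within-batch values are log2 of mean CPM plus 0.5. A call needs an adjusted p below 0.05 and a log2 fold change beyond 1.2 in size. Lengths and coordinates are from GENCODE vM39, to which 99.2% of listed genes matched, and promoters from RefSeq (GRCm38.p6).

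The 10 genes and the lists were chosen with earlier results of these data known. Named genes are the 10, all paralogs, of each list up to 3 called genes per direction, taken by adjusted p, and the 3 genes most like Nfe2l2 and Nqo1. Gclc, Gclm, Fth1, Ftl1, Pgls, H6pd, Idh1 and Rpe were named after their values were seen. Groups follow the sample labels. Methods were tested on simulated data. Alternatives were DESeq2's size factors and test, other count filters and fold limits, no batch term, other sets of libraries, each library left out in turn and, in tissue, totals without mitochondrial genes. Counts of 0 did not occur for the 10 genes, and depth was 8076188 to 61766179 counts per library.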

Additional observations from a re-analysis of the deposited data

Results flagged for a closer look

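Txnrd1 in the WT library of batch 8995 was 61.2 CPM, far from the other 3 WT mRPE libraries at 38.4 to 40.3 CPM, with a gap of 0.914 of the group's range, above Dixon's critical value for 4 samples. Of the 10 genes tested in the 4 WT mRPE libraries this was the 1 past it, and chance marks about 1 in 20 such groups. The test takes no account of batch. Txnrd1 was also higher in batch 8995 than in batch 9262 in KO22 (161 against 97.7 and 119.6 CPM) and in KO26 (86.4 against 49.6 CPM). The part of the batch in this value was not tested.

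The change against WT differed between the clones in 5 genes, when KO22 was compared directly with KO26 (quasi-likelihood test of edgeR). The difference, KO22 minus KO26 on the log2 scale, was 2.21 for Nqo1 (adjusted p = 1.75e-05), 1.14 for Pgd (0.000298), 1.03 for Nfe2l2 (0.000842), 1.02 for Txnrd1 (0.000423) and 0.60 for G6pdx (0.00963). Each kept its direction and an adjusted p under 0.05 with any 1 of the 5 clone libraries left out. However, Txnrd1 had an edgeR adjusted p of 0.0538 with no batch term. G6pdx had an edgeR adjusted p of 0.0792 with the KO22 and KO26 libraries alone. Relative to the median of its chromosome in this comparison, G6pdx stood at 0.24, the 60.3 percentile of chromosome X, and the others at 0.92 to 1.62. The part of the chromosomes in these differences was not tested.

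Srxn1 lay above WT in every KO22 and KO26 library and below WT in every RPE/choroid library labelled Prom1-KO, where the log2 fold change was -0.17. Of all genes, 24.8% lay wholly above WT in KO22 and 11.9% in KO26, and 7.89% lay wholly below WT in the tissue. The difference between culture and tissue was not tested, and the tissue value did not pass edgeR's quasi-likelihood test (adjusted p = 0.806).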

How the results depend on the processing

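Under the fits listed with the methods, the directions of Nqo1, Txnrd1, Srxn1, G6pdx, Pgd, Nfe2l2, Keap1 and Hmox1 in KO22 held in all 14 alternative fits, and Nqo1, Txnrd1 and Pgd passed both limits in each. Hmox1 in KO22 also passed both with no batch term, at 1.41 (edgeR adjusted p = 0.0299). The cause of the changes that follow was not tested. With no limit on the fold change, the genes higher past the test rose from 3 to 8 of 10 in KO22, from 1 to 2 in KO26 and from 1 to 5 in KO22 against KO26. Of all genes, 26.9%, 2.36% and 16.3% were then higher, and calls in both directions became 10838, 725 and 7131. With a limit of 1, 6 and 4 of the 10 were higher in KO22 against WT and KO22 against KO26. Over all genes tested, 2909 of 20455 and 1958 of 20737 were higher at that limit. Calls over all genes in KO26 were 629 with DESeq2's test, 194 with no batch term and 818 with WT and KO26 libraries alone, against 399. They were 2336 in KO22 against KO26 with these libraries alone, against 3798, and 273 in RPE/choroid with DESeq2's test, against 47.

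Signs turned for genes that passed no test. Bach1 in KO22 was -0.13 in batch 9262 alone. Keap1 and Bach1 were -0.0203 and -0.0345 in KO22 against KO26 with these libraries alone, and Keap1, Txnrd1 and Pgd were -0.0251, -0.0408 and -0.0012 in RPE/choroid with totals that leave out mitochondrial genes. With the chromosome median subtracted, KO22 values moved by more than the spread between replicates to 0.18 for Keap1, 2.995 for Nqo1, 1.98 for Txnrd1, 0.83 for G6pdx, 1.02 for Pgd and -0.39 for Osgin1. These shifted values have no test, and Pgd is then under the fold limit.

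With 1 library left out, calls over all genes in KO26 were 114 without the KO26 library of batch 8995, 119 to 131 without any 1 WT library of batch 9262 and 626 without the KO26 library of batch 9262. In RPE/choroid they ranged from 9 to 40, with 9 without 12965-SB-05 and 14 to 21 without any 1 WT library. The genes higher past both limits ranged from 1 to 2 in KO26 and from 1 to 2 in KO22 against KO26, where those lower ranged from 0 to 1. The ranges that crossed 0 were -0.15 to 0.15 for Bach1 in KO22. In KO26 they were -0.10 to 0.0843 for Nfe2l2, -0.28 to 0.30 for Bach1, -0.26 to 0.54 for Hmox1 and -0.0653 to 0.35 for Pgd. In KO22 against KO26 they were -0.22 to 0.27 for Keap1 and -0.27 to 0.32 for Bach1. In RPE/choroid they were -0.15 to 0.0114 for Nfe2l2, -0.0334 to 0.0915 for Keap1, -0.40 to 0.0323 for Hmox1, -0.16 to 0.17 for Txnrd1, -0.0141 to 0.18 for G6pdx and -0.0897 to 0.13 for Pgd.
No paired analysis was possible because the labels number no replicates and the numbers used here follow sample order, so they pair nothing. The 2 library series are a term in the mRPE fits.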
